A study of Mus musculus with 21 samples.

Results

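The comparison described here sets labelled Nur77-KO against WT mouse macrophages at the late time of a lipopolysaccharide (LPS) response, 18 h, and covers 7 of the 21 libraries of the series, 3 labelled KO and 4 WT. The cells were bone marrow-derived macrophages of male C57Bl6/J mice aged 6 to 12 weeks, grown for 7 days in medium with 15% conditioned medium of L929 fibroblasts, and all 7 libraries came from cells given LPS at 100 ng/ml for 18 h. The labelled-KO cells came from Nur77-deficient mice, but their genotype tag reads cre, and neither the disrupted part of the gene nor a driving promoter is given in the sources used here. The same genotypes at 0 h and 4 h, again 3 and 4 libraries each, enter where a difference at 18 h is set against an earlier one. Libraries are numbered without a statement that the numbers stand for different mice, and p-values then reflect only the spread between these libraries, which may be technical.

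LPS, from the outer membrane of Gram-negative bacteria, signals through Toll-like receptor 4, which drives NF-kB and interferon regulatory factors. These switch on cytokine genes early, and interferon beta and feedback inhibitors reshape the response over the following hours. Nur77, encoded by Nr4a1, is an orphan nuclear receptor and itself an immediate early gene in macrophages. It binds a DNA element known as the NBRE and is known for opposing inflammatory gene expression and for effects on mitochondrial metabolism.

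The 7 libraries held 12500551 to 24724013 counts assigned to genes. Macrophage markers summed to 20433 to 21211 CPM (a gene's share of the counts of its library, with library sizes scaled by TMM factors) in labelled KO and to 20486 to 22632 CPM in WT, so the labelled cell type was borne out in both groups. The other marker lists did not all match between groups. Stromal and fibroblast markers summed to 107, 416 and 1515 CPM in labelled-KO numbers 2, 3 and 4, against 66.6, 56.8, 139 and 52.6 CPM in WT numbers 1 to 4, so that labelled-KO number 2 lay within the WT range and number 4 far above it. Neutrophil markers summed to 625 to 760 CPM in labelled KO and 407 to 492 CPM in WT, with Mpo and Prtn3, defining genes of the precursors, at 0 in all 7. T and NK cell markers summed to 104 to 138 against 39.7 to 75.8 CPM, nearly all of it Il7r, and monocyte markers to 537 to 674 against 368 to 439 CPM. In RNA of whole cultures, fewer cells of a type and less RNA per cell cannot be told apart. The first principal component of the 7 libraries held 57.4% of the variance, and placed labelled-KO numbers 2, 3 and 4 at 16.4, 37.8 and 62.3 and WT numbers 1 to 4 at -35.8, -32.6, -16.6 and -31.5, which is also the order of the stromal marker level within labelled KO. Counts are therefore given below also without labelled-KO number 4, with the stromal marker mean of each library as a covariate, and for labelled-KO number 2 alone against WT, an alternative chosen after seeing the data.

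Nr4a1 came first, as the gene the label names. Nr4a1 had 2.96, 2.1 and 3.48 CPM in labelled-KO numbers 2, 3 and 4, against 1.04, 1.33, 0.965 and 1.08 CPM in WT numbers 1 to 4. The groups did not overlap, and labelled KO was the higher one (log2 fold change 1.35, SE 0.44, adjusted p = 0.023, quasi-likelihood test of edgeR, Benjamini-Hochberg adjusted over all genes tested). The call ended without labelled-KO number 2 or 4, without WT number 1 and with the stromal covariate (adjusted p = 0.051 to 0.15). At 4 h it averaged 0.871 ± 0.34 CPM in labelled KO (SD, n = 3) and 3.11 ± 2.78 CPM in WT (SD, n = 4), a log2 fold change of -1.77 (edgeR adjusted p = 0.04), and at 0 h 12.3 ± 0.114 and 14.7 ± 1.27 CPM, which did not pass (edgeR adjusted p = 0.75). Counts of the transcript outside a disrupted part check nothing, so Nr4a1 does not settle the label, and the libraries are called labelled KO throughout.

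The difference between the genotypes was broad at this time. Of 12529 genes tested, 4034 (32.2%) passed the edgeR test with an adjusted p under 0.05, 2074 higher (16.6%) and 1960 lower (15.6%) in labelled KO. The split moved with the scaling, to 2448 higher and 1663 lower with median-of-ratios factors and to 1838 higher and 2286 lower with upper-quartile factors. Many calls were small: the median size of the log2 fold change among called genes was 0.58, 2034 of them differed by less than 1.5-fold, and 971 (7.75%) by at least 2-fold, 665 higher (5.31%) and 306 lower (2.44%). In 4481 genes (35.8%) the 3 labelled-KO values and the 4 WT values did not overlap, and 3467 of these (27.7% of all tested) also passed. Over all genes the median log2 fold change was -0.01, and -0.06 to 0.03 with other scaling factors. Scaling itself places this median near 0, so it cannot check the scaling. At 18 h the TMM factors of the genotypes did not overlap. They were 0.888, 0.853 and 0.867 for labelled-KO numbers 2, 3 and 4. WT numbers 1 to 4 had 1.025, 1.034, 0.995 and 0.988. List medians are therefore relative to the middle of all genes, and a shift shared by most genes was not tested. Without labelled-KO number 4 the count was 2674, with the stromal covariate 2452, and for labelled-KO number 2 alone 1483, of which 1401 were among the 4034. A set of 1928 genes passed in the main fit and in all the other fits with more than 1 labelled-KO library at 18 h, 947 of them higher, and 457 of the 1928 differed by at least 2-fold. A gene is called lasting below where it passed in all of these fits.

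**Figure D1:**
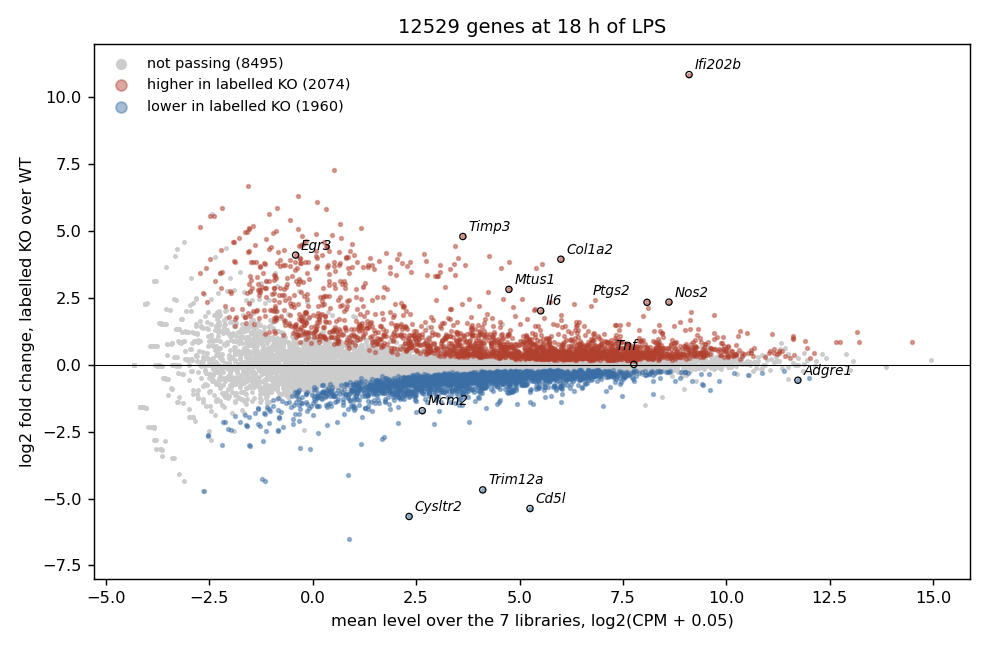
Each point is 1 of 12529 genes, with its mean level over the 7 libraries at 18 h (log2 of CPM plus a small constant) across and the log2 fold change of labelled KO over WT upward. Red genes (2074) were higher and blue genes (1960) lower by the edgeR test at an adjusted p under 0.05, and Ifi202b, with a near-identical relative, stands at 10.85 while Tnf lies at 0.02.

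Inflammatory cytokine and mediator genes known as NF-kB targets were higher in labelled KO as a group. Of 46 tested, 33 rose and none fell, with a median log2 fold change of 0.84. The count was 29 without labelled-KO number 4, 29 with the stromal covariate and 21 with labelled-KO number 2 alone, where the median was 0.93. Averaged over the list, log2 CPM lay between 6.82 and 6.90 in labelled-KO libraries, against 5.82 to 5.97 in WT libraries. The other 13 did not pass, and they include Tnf and Il12b.

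Nos2, the inducible nitric oxide synthase (NM_010927, chromosome 11, 78920787 to 78960226 on mm10, GRCm38.p6), separated the groups without overlap. Nos2 had 716, 552 and 900.5 CPM in labelled-KO numbers 2, 3 and 4, against 105, 123, 170.0 and 171 CPM in WT numbers 1 to 4. Every labelled-KO library stood at least 3 times above the highest WT library (log2 fold change 2.35, SE 0.28, adjusted p = 3.4e-06). Ptgs2, the inducible cyclooxygenase (chromosome 1, 150100031 to 150108234), behaved alike. Ptgs2 had 494, 559 and 447 CPM in labelled-KO numbers 2, 3 and 4, against 96.7, 96.3, 114 and 88.4 CPM in WT numbers 1 to 4. Its change was log2 fold change 2.34, SE 0.28, adjusted p = 3.3e-06. Il6, the cytokine that drives the acute phase response (chromosome 5, 30013114 to 30019975), separated the groups as well. Il6 had 80.8, 99.8 and 59.5 CPM in labelled-KO numbers 2, 3 and 4, against 24.7, 17.9, 17.5 and 18.6 CPM in WT numbers 1 to 4. No library of one group entered the range of the other (log2 fold change 2.02, SE 0.22, adjusted p = 9.9e-07). All of these were lasting and passed with labelled-KO number 2 alone.

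Il1a, Il1b and Il1rn of the same list each passed. Il1a, an alarmin cytokine, stood at 935, 1330.0 and 706 CPM in labelled KO, against 295, 258, 208 and 250.1 CPM in WT, without overlap (log2 fold change 1.97, SE 0.17, adjusted p = 7.6e-08). Il1b, whose product is released after cleavage by caspase 1, stood at 2094, 2552 and 1771 CPM in labelled KO, against 1150.1, 842, 771 and 979.6 CPM in WT (log2 fold change 1.19, SE 0.20, adjusted p = 0.00015). The gene of their natural antagonist, Il1rn, was higher as well, at 7596, 9344 and 8949 CPM in labelled KO, against 4396, 4208, 5068 and 5435 CPM in WT (log2 fold change 0.85, SE 0.15, adjusted p = 0.00028). In all 3 genes labelled-KO number 3 was the highest of the 7 libraries. Il12a, which encodes the p35 chain of interleukin 12, was a low gene with a clear gap, 2.79, 2.89 and 1.21 CPM in labelled KO, against 0.366, 0.47, 0.402 and 0.227 CPM in WT (log2 fold change 2.58, SE 0.37, adjusted p = 0.0001). These 4 genes were lasting.

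Other members passed less firmly or not at all. Il10, an anti-inflammatory cytokine, was higher (56.5, 41.2 and 61.2 CPM in labelled KO, against 33.1, 25.2, 28.8 and 31.8 CPM in WT, log2 fold change 0.84), which no longer passed without labelled-KO number 4 or with the covariate. Csf3, the granulocyte growth factor, was higher by 1.50 on the log2 scale and lost its call with the covariate. Lif, a cytokine of the interleukin 6 family, had the list's largest log2 fold change (3.43) but stood at 0.696, 1.58 and 8.89 CPM in labelled KO, against 0.183, 0.43, 0.483 and 0.283 CPM in WT, so labelled-KO number 4 decided its size, and the call ended without that library. F3, the tissue factor that starts coagulation, also followed number 4 and its groups overlapped. Tnf, the archetypal early cytokine, stood at 268, 213 and 174 CPM in labelled KO, against 246, 217, 191 and 209 CPM in WT, with overlapping groups and a log2 fold change of 0.02 that did not pass (adjusted p = 0.96). Il12b, the p40 chain, had 32.2, 24.9 and 19.8 CPM in labelled KO, against 20.6, 14.8, 15.6 and 25.8 CPM in WT and did not pass either (log2 fold change 0.41, adjusted p = 0.3). Ifnb1, interferon beta, had 10.8, 8.14 and 7.33 CPM in labelled KO, against 4.64, 3.68, 4.99 and 6.17 CPM in WT, without overlap but short of the threshold (log2 fold change 0.85, adjusted p = 0.064). Acod1, which makes itaconate, did not overlap and did not pass (0.45, adjusted p = 0.39). Il23a and Csf2 were too low to test, with 1 to 5 and 0 to 5 counts per library.

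**Figure D2:**
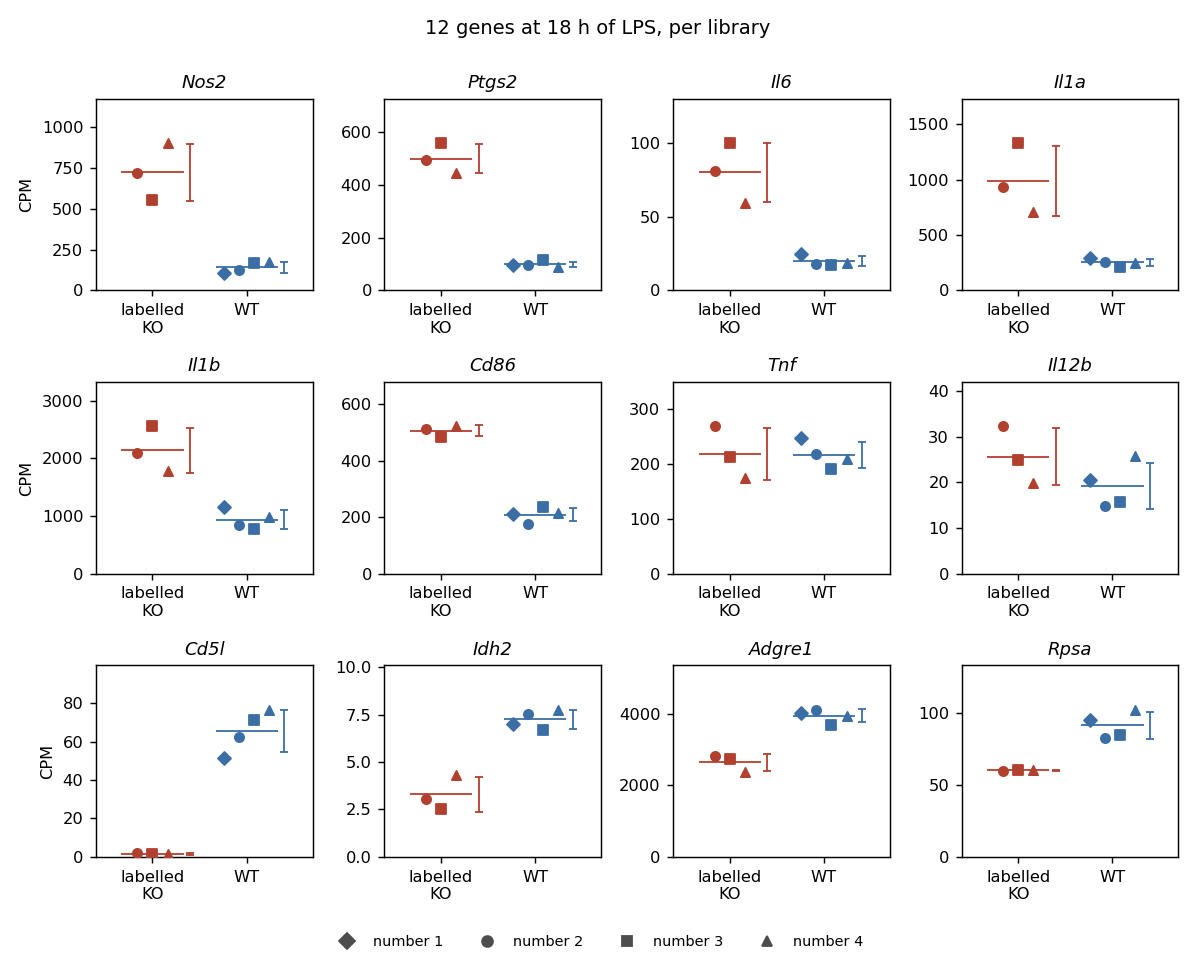
Each panel gives 1 gene's CPM at 18 h in the 3 labelled-KO libraries (left, red) and the 4 WT libraries (right, blue), with the group mean as a line, the SD as a bar and the library number as the marker shape. The labelled-KO libraries lie above all WT libraries for Nos2, Ptgs2, Il6, Il1a, Il1b and Cd86, below them for Cd5l, Idh2, Adgre1 and Rpsa, and overlap with them for Tnf and Il12b.

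The promoters of the list's higher members were searched for 3 motifs, on both strands, in the 250 bases before the RefSeq start (GRCm38.p6): GGGA, any 3 bases and then TCC for NF-kB, TGANTCA for AP-1 and AAAGGTCA, the NBRE that Nur77 binds. Of the 33 higher members, 16 had a window whose start lay within 50 bases of the start of the gene, as did 6981 of all genes tested. The promoters of Il6, Ccrl2 and Il1rn are shown as lasting members that hold a match, with each match in capitals. The Il6 window is chr5:30012864-30013113 on the plus strand, the Ccrl2 window chr9:111057519-111057768 on the minus strand and the Il1rn window chr2:24336610-24336859 on the plus strand, each printed 5′ to 3′ toward the gene.
Il6: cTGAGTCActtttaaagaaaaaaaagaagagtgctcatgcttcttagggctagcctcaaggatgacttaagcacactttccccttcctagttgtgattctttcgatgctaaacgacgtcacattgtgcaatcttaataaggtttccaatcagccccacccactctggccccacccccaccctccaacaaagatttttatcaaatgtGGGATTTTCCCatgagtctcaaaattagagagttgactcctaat
Ccrl2: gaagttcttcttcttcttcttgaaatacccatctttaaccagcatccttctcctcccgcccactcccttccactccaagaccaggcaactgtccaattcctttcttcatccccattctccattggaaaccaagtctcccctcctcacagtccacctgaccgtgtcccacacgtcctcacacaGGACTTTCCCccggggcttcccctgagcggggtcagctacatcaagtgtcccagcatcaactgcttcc
Il1rn: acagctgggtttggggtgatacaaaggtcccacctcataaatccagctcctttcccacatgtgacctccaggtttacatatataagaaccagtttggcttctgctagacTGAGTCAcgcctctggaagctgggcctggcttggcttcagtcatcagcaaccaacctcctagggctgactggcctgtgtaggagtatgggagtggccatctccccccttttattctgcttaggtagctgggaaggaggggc
In Il6 the capitals near the start of the gene are a pair of NF-kB matches, overlapping on opposite strands, which begin 44 and 43 bases before it, and those at the far end are an AP-1 match. In Ccrl2 they mark an NF-kB match that begins 68 bases before the start, and in Il1rn an AP-1 match 141 bases before it.

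The NF-kB motif was in 3 of the 16 windows (Il6, Ccrl2 and Csf1), against 4.53% of all 6981 windows, 5.08% of those of genes higher in labelled KO and 4.06% of those of genes lower. AP-1 matches were in 5 of the 16, against 4.43% of all windows, 6.84% for higher genes and 3.21% for lower genes. The NBRE was in 0 of the 16, and in 0.874% of all windows, 0.647% for higher and 0.93% for lower genes. No test was made of these shares. The list was made of known NF-kB targets, and list members that did not pass were not searched as a group. Its share of NF-kB matches therefore does not bear on the difference between the genotypes. A match is a description of letters, and a window without one says only that the letters are not in those 250 bases.

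Genes of the NF-kB machinery rose by less. Of 21 subunits and feedback inhibitors 12 were higher and none lower (median 0.27), 11 without labelled-KO number 4 and 11 with the covariate. Tnfaip3, which encodes the ubiquitin-editing inhibitor A20, stood at 357, 333 and 333 CPM in labelled KO, against 214, 189, 204 and 196 CPM in WT (log2 fold change 0.77, SE 0.08, adjusted p = 1.3e-06). Tax1bp1, an adaptor of A20, was higher by 0.79 on the log2 scale, the subunit gene Rel by 0.52 and the deubiquitinase gene Otud7b by 0.47. These 4 were lasting and their groups did not overlap.

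Immediate early and Nr4a genes were also higher, 23 of 37 against none lower, with a median log2 fold change of 0.67. The count was 19 without labelled-KO number 4 and 18 with the covariate, and the median was 0.64 with number 2 alone. Klf4, a transcription factor of monocyte differentiation, stood at 11.5, 9.37 and 15.4 CPM in labelled KO, against 2.99, 3.52, 3.22 and 4.42 CPM in WT (log2 fold change 1.77, SE 0.27, adjusted p = 4.9e-05). Nr4a3, a close relative of Nr4a1, was near the detection limit in WT, with 28 counts over the 3 labelled-KO libraries and 7 over the 4 WT libraries (log2 fold change 2.87, SE 0.53, adjusted p = 0.00041). Egr3, a zinc finger factor, had 57 counts in labelled KO and 6 in WT, none of them in WT number 1 (log2 fold change 4.10, SE 0.68, adjusted p = 0.00015). Fosl1, a partner in AP-1, was higher by 2.20 but lost its call with the covariate. Klf4 and Egr3 were lasting, and Nr4a3 passed in every fit that tested it.

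Chemokine genes rose in 11 of 23 and fell in none (median 0.53), with 8 higher without labelled-KO number 4 and 7 with the covariate. Ccl22, which attracts T cells through Ccr4, stood at 51.4, 56.9 and 42.5 CPM in labelled KO, against 11.9, 12, 14 and 18.4 CPM in WT (log2 fold change 1.84, SE 0.44, adjusted p = 0.0035). Cxcl10, an interferon-induced attractant of T cells, stood at 5204, 5131 and 5144 CPM in labelled KO, against 2776, 2563, 3015 and 2748 CPM in WT (log2 fold change 0.89, adjusted p = 0.0072). Ccl2, which attracts monocytes, was higher by 0.62, and no longer passed without labelled-KO number 3 or with the covariate. Cxcl12 and Cx3cl1 followed labelled-KO number 4 (0.783, 2.89 and 11.8 CPM in labelled KO, against 0.244, 0.0783, 1.61 and 0 CPM in WT for Cxcl12), and Ccl5 (0.39) and Cxcl1 (0.14) did not pass. Among 21 receptors 6 were higher and 2 lower (28.6% and 9.5%, against 16.6% and 15.6% of all genes tested). Ccrl2, an atypical receptor that binds chemerin, stood at 293, 205 and 268 CPM in labelled KO, against 92.6, 81.4, 96.4 and 96.4 CPM in WT (log2 fold change 1.48, SE 0.13, adjusted p = 1.2e-07), and Ccr7, the receptor for lymph node homing, was higher by 1.53. Ccr3 was lower, at 15.8, 28.1 and 15.9 CPM in labelled KO, against 53.9, 53.2, 50.6 and 50.5 CPM in WT (log2 fold change -1.39, SE 0.16, adjusted p = 2.1e-06), and the fractalkine receptor gene Cx3cr1 was lower by a log2 fold change of -1.62.

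Interferon-stimulated genes were higher in 37 and lower in 1 of 68 tested, with a median of 0.51. That count depended more on single libraries than the NF-kB count: it was 23 without labelled-KO number 4, 25 with the covariate and 12 with number 2 alone, although the median was 0.54 there. Their mean was 9.66 to 9.76 log2 CPM in labelled KO and 9.12 to 9.23 in WT. Gbp5, a guanylate-binding protein that promotes inflammasome assembly, stood at 1988, 1943 and 1899 CPM in labelled KO, against 764, 761, 890.2 and 810.2 CPM in WT (log2 fold change 1.27, SE 0.20, adjusted p = 7e-05), and its relative Gbp4 at 937, 822 and 992 CPM in labelled KO, against 262, 260.4, 342 and 296 CPM in WT (log2 fold change 1.66, SE 0.36, adjusted p = 0.0014). Both were lasting. Ifit1bl1, of a family with close copies and so uncertain, was higher by 1.17. The member that was lower, Ddx58, the gene of the RIG-I sensor of viral RNA, stood at 533, 467 and 497 CPM in labelled KO, against 792, 865, 882 and 825 CPM in WT (log2 fold change -0.75, SE 0.20, adjusted p = 0.0063) and did not pass with labelled-KO number 2 alone.

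Antigen presentation and costimulation genes followed. Of 23 MHC class I and immunoproteasome genes 13 were higher and 1 lower (8 and 0 without labelled-KO number 4), among them Tap2, a peptide transporter subunit (0.65), and Nlrc5, the class I transactivator (0.63). H2-Q6 and H2-Q7, which have near-identical copies, are uncertain and lost their calls when transcripts were summed. For MHC class II, 5 of 13 were higher and 1 lower, 3 and 0 without labelled-KO number 4. H2-Ab1, which encodes a beta chain, was measured at 26.8, 27 and 30.5 CPM in labelled KO, against 12.8, 10.4, 11.9 and 16.1 CPM in WT (log2 fold change 1.14, SE 0.21, adjusted p = 0.00033), and the invariant chain gene Cd74 at 128, 101 and 135 CPM in labelled KO, against 61.4, 51.2, 56.3 and 67.7 CPM in WT (log2 fold change 1.04, SE 0.20, adjusted p = 0.00063). Of 25 costimulatory and checkpoint ligands 11 were higher and 4 lower, 9 and 3 without labelled-KO number 4. Cd86, a ligand of CD28, stood at 512, 486 and 522 CPM in labelled KO, against 211, 176, 235 and 217 CPM in WT (log2 fold change 1.27, SE 0.10, adjusted p = 3.2e-08) and Cd80, the other such ligand, at 22.2, 20.4 and 26.7 CPM in labelled KO, against 7.99, 8.22, 10.2 and 10.6 CPM in WT (log2 fold change 1.33, SE 0.11, adjusted p = 3.6e-08). Slamf1, a self-ligand receptor of the SLAM family, stood at 25.3, 21.9 and 29.2 CPM in labelled KO, against 3.78, 3.52, 6.35 and 5.27 CPM in WT (log2 fold change 2.47, SE 0.20, adjusted p = 2.4e-08). In the opposite direction, Vsir, which encodes the checkpoint protein VISTA, stood at 128, 130.4 and 141 CPM in labelled KO, against 214, 205, 193 and 219.6 CPM in WT (log2 fold change -0.65, SE 0.08, adjusted p = 3.6e-06), and Cd244a, another SLAM family member, was lower by a log2 fold change of -1.75. Cd86, Cd80, Slamf1 and Vsir were lasting, and labelled KO and WT did not overlap in any of them. Cd244a (171558718 to 171585316) and Slamf1 (171767131 to 171801184) are neighbours on chromosome 1. Ifi202b, described below as different at every time, lies on the same chromosome (173962569 to 173982844). The part of this shared position in their differences was not tested.

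Sensors and cell death genes changed in both directions. Of 34 Toll-like receptors and adaptors 11 were higher and 3 lower (32.4% and 8.8%, against 16.6% and 15.6% of all genes tested). Cd14, the LPS co-receptor, stood at 857, 986 and 930.1 CPM in labelled KO, against 566, 409.6, 352 and 503 CPM in WT (log2 fold change 1.01, SE 0.16, adjusted p = 6.6e-05), the double-stranded RNA receptor gene Tlr3 at 384, 443 and 405 CPM in labelled KO, against 217, 216, 238 and 206 CPM in WT (log2 fold change 0.91), and Ripk2, the kinase below NOD receptors, at 71.4, 65.4 and 75.3 CPM in labelled KO, against 37.1, 33.7, 41.1 and 41.1 CPM in WT (log2 fold change 0.89). Irak4, the kinase that MyD88 recruits, was lower (32.6, 30.7 and 33.1 CPM in labelled KO, against 48.9, 49.8, 52.8 and 47.5 CPM in WT, log2 fold change -0.63). Of 33 inflammasome and cell death genes 15 were higher and 4 lower (11 and 3 without labelled-KO number 4). The DNA sensor gene Aim2 was higher by 0.99 and Casp4, which senses cytosolic LPS, by 0.89. Pycard, the adaptor ASC, was lower at 20.5, 18.7 and 19.3 CPM in labelled KO, against 36.5, 30.9, 31 and 31.9 CPM in WT (log2 fold change -0.74, SE 0.11, adjusted p = 2.9e-05), and the death agonist gene Bid by a log2 fold change of -0.97. The death receptor gene Tnfrsf10b was higher by 1.65 at 18 h, less than its log2 fold changes of 4.04 at 4 h and 2.98 at 0 h. Of 27 genes of interleukin 10, STAT3 and SOCS signalling 13 were higher and none lower (8 and 1 without labelled-KO number 4), with Socs1, a feedback inhibitor of interferon signalling, at 81.3, 38.1 and 86.8 CPM in labelled KO, against 27.7, 24.3, 31.7 and 27.3 CPM in WT (log2 fold change 1.32, SE 0.22, adjusted p = 0.00013).

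**Figure D3:**
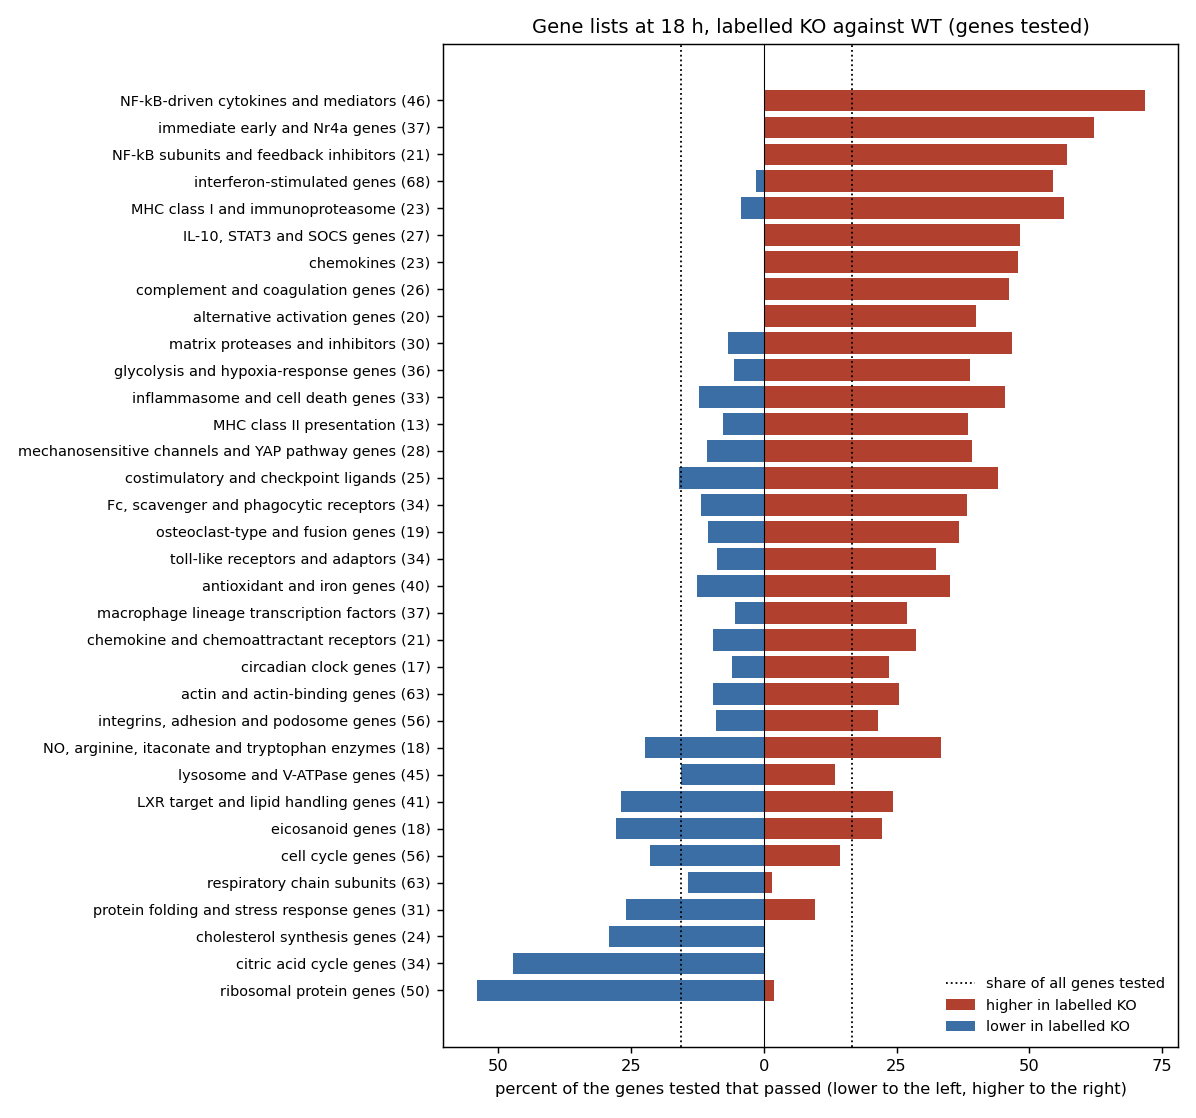
For each of 34 gene lists, the bar to the right gives the percent of its tested genes (number in brackets) that were higher in labelled KO at 18 h and the bar to the left the percent that were lower, by the edgeR test at an adjusted p under 0.05. Dotted lines mark the shares among all genes tested, 16.6% and 15.6%, and the NF-kB-driven list reaches 71.7% higher while ribosomal protein and citric acid cycle genes lie mostly to the left.

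Enzymes of arginine and tryptophan use were split, 6 higher and 4 lower of 18 (4 and 4 without labelled-KO number 4). Beside Nos2, Slc7a2, which imports arginine, stood at 639, 809 and 561 CPM in labelled KO, against 244, 238, 231 and 263 CPM in WT (log2 fold change 1.46, SE 0.12, adjusted p = 6.1e-08), although at 0 h it had been lower in labelled KO (-1.20, adjusted p = 0.00012). Kmo and Kynu, enzymes of tryptophan breakdown, were higher by 2.33 and 2.01, at levels of 8.62, 4.82 and 10.4 CPM in labelled KO, against 1.89, 1.25, 1.53 and 1.76 CPM in WT for Kmo. The 4 lower members were the ornithine aminotransferase gene Oat, by a log2 fold change of -0.55, the spermidine synthase gene Srm, by -1.32, the spermine synthase gene Sms, by -0.96, and Spr, by -0.58. Arg1, arginase 1, stood at 11.2, 27 and 29.9 CPM in labelled KO, against 14.9, 14.2, 20.5 and 24.4 CPM in WT, overlapped and did not pass (0.30, adjusted p = 0.46).

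Eicosanoid genes were split, 4 higher and 5 lower of 18 (22.2% and 27.8%, against 16.6% and 15.6% of all genes tested). Ptgs2, the phospholipase gene Pla2g4a (0.89), the prostaglandin E synthase gene Ptges (0.65) and the prostacyclin receptor gene Ptgir (0.92) were higher. Other prostaglandin genes were lower, among them the receptor gene Ptger4 (-0.51) and the synthase gene Ptges3 (-0.34). Alox5ap, which presents arachidonate to 5-lipoxygenase, stood at 15.4, 16.4 and 16.8 CPM in labelled KO, against 29.8, 34.6, 33.8 and 37.3 CPM in WT (log2 fold change -1.06, SE 0.13, adjusted p = 6.7e-06). Cysltr2, a cysteinyl leukotriene receptor gene, held 6 counts over the labelled-KO libraries and 599 over the WT libraries (log2 fold change -5.67, SE 0.38, adjusted p = 6.6e-09), and was about as low at 0 h and 4 h, with 2 and 0 counts in labelled KO. Pla2g4a, Ptgir, Alox5ap and Cysltr2 were lasting. Without labelled-KO number 4, without number 2 or with the covariate 4 were higher and 3 lower.

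Citric acid cycle genes were lower in labelled KO by small differences. Of 34 citric acid cycle genes, carriers included, 16 were lower and none higher, with a median of -0.21. The count was 13 without labelled-KO number 4, 9 with the covariate and 7 with number 2 alone, and the list mean was 5.17 to 5.20 log2 CPM in labelled KO and 5.43 to 5.49 in WT. Idh2, the mitochondrial isocitrate dehydrogenase that uses NADP, stood at 3.05, 2.54 and 4.34 CPM in labelled KO, against 7.02, 7.51, 6.68 and 7.76 CPM in WT (log2 fold change -1.11, SE 0.14, adjusted p = 9.3e-06). Idh3a, a subunit of the NAD-dependent enzyme, stood at 7.66, 7.01 and 5.33 CPM in labelled KO, against 14.1, 13.5, 12.5 and 12 CPM in WT (log2 fold change -0.97, SE 0.13, adjusted p = 1.2e-05). The dicarboxylate carrier gene Slc25a10 stood at 73.6, 54.8 and 54.8 CPM in labelled KO, against 112, 111, 89.9 and 104 CPM in WT (log2 fold change -0.77, SE 0.10, adjusted p = 1.2e-05). Suclg2, a succinyl-CoA ligase subunit, was lower by a log2 fold change of -0.89 and the cytosolic enzyme gene Idh1 by -0.31, and the Idh1 call ended with the covariate. Idh2, Idh3a, Slc25a10 and Suclg2 were lasting, and none of the 4 passed at 0 h or 4 h.

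Respiratory chain subunits were lower in 9 and higher in 1 of 63, below the 15.6% of all genes that were lower, with 5 lower without labelled-KO number 4 and 2 with the covariate. Of 36 glycolysis and hypoxia-response genes 14 were higher and 2 lower (9 and 2 without labelled-KO number 4). Pfkfb3, which makes the activator of phosphofructokinase, stood at 855, 788 and 1059 CPM in labelled KO, against 378, 375, 445 and 468 CPM in WT (log2 fold change 1.11, SE 0.10, adjusted p = 1.5e-07), and Vegfa, the vascular growth factor gene, at 88.8, 79 and 99.5 CPM in labelled KO, against 28.5, 33.7, 35.6 and 26.5 CPM in WT (log2 fold change 1.52, SE 0.17, adjusted p = 1.8e-06). Mxi1, a MYC antagonist induced by hypoxia, was higher by 1.57. Hk2, hexokinase 2, was lower, with 97.2, 108 and 108 CPM in labelled KO, against 131, 138, 123 and 125 CPM in WT (log2 fold change -0.31). These 4 were lasting.

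Lipid genes changed in both directions. Of 24 cholesterol synthesis genes 7 were lower and 0 higher, but only 2 were lower without labelled-KO number 4, with the covariate or with number 2 alone. Dhcr7, which makes the last reduction to cholesterol, stood at 2.61, 3.07 and 3.2 CPM in labelled KO, against 7.93, 8.14, 6.6 and 7.48 CPM in WT (log2 fold change -1.35, SE 0.21, adjusted p = 6.1e-05) and was lasting. Of 41 LXR target and lipid handling genes 10 were higher and 11 lower (24.4% and 26.8%, against 16.6% and 15.6% of all genes tested). The counts were 5 and 11 without labelled-KO number 4 and 6 and 11 without WT number 2. Ch25h, which makes 25-hydroxycholesterol, an inhibitor of SREBP processing, stood at 73.6, 46.9 and 67.4 CPM in labelled KO, against 12.3, 10.1, 13.5 and 10.1 CPM in WT (log2 fold change 2.46, SE 0.27, adjusted p = 1.3e-06). The lipid droplet protein gene Hilpda was higher by 1.59, while the desaturase genes Fads1 (-0.94) and Scd2 (-1.20) were lower. Lipg, endothelial lipase, stood at 268, 328 and 343 CPM in labelled KO, against 104, 83.5, 124 and 128 CPM in WT (log2 fold change 1.51, SE 0.19, adjusted p = 8.6e-06). All of these genes were lasting.

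Antioxidant and iron genes were higher in 14 and lower in 5 of 40, but in 5 and 4 without labelled-KO number 4. Slc7a11, the cystine importer, stood at 78.4, 145 and 98.6 CPM in labelled KO, against 29, 36.7, 42.6 and 46.4 CPM in WT (log2 fold change 1.47, SE 0.21, adjusted p = 2.2e-05). A pair of iron uptake genes were lower: the transferrin receptor gene Tfrc stood at 15.8, 19.5 and 18.5 CPM in labelled KO, against 29.7, 34.9, 31.5 and 30.3 CPM in WT (log2 fold change -0.82, SE 0.11, adjusted p = 1.2e-05) and the endosomal iron reductase gene Steap3 at 5.4, 5.69 and 5.55 CPM in labelled KO, against 10.4, 13.7, 13.2 and 13.2 CPM in WT (log2 fold change -1.19, SE 0.13, adjusted p = 9.7e-07). Of 50 ribosomal protein genes 27 were lower and 1 higher, with a median of -0.31 (22 lower without labelled-KO number 4, 16 with the covariate, 8 with number 2 alone). Rpsa stood at 59.3, 60.3 and 60.3 CPM in labelled KO, against 95, 82.7, 84.8 and 102 CPM in WT (log2 fold change -0.60, SE 0.08, adjusted p = 1.4e-05) and Rps18 was lower by a log2 fold change of -0.54. Many ribosomal protein genes have processed copies that could share their reads, so single values are uncertain, and Rps3a1 was low in labelled KO at all 3 times (-1.53 at 18 h). Of 31 protein folding genes 8 were lower and 3 higher (25.8% and 9.7%, against 15.6% and 16.6% of all genes tested), and 5 were lower without labelled-KO number 2. The lower ones included Hyou1 (-0.45) and Herpud1 (-0.65), which serve the endoplasmic reticulum. The 3 higher genes included Hspa1a and Hspa1b, which are near-identical and uncertain. Of 45 lysosome and V-ATPase genes 6 were higher and 7 lower (13.3% and 15.6%), near the 16.6% and 15.6% of all genes tested. The counts were 3 and 5 without labelled-KO number 4, 3 and 3 with the covariate, and 4 lower without labelled-KO number 2 or 3 or WT number 3 or 4. The protease gene Ctsh stood at 598, 524 and 653 CPM in labelled KO, against 309, 292, 347 and 362 CPM in WT (log2 fold change 0.85, SE 0.10, adjusted p = 1.8e-06).

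The study's title names mechanics, and genes of the cytoskeleton were called in both directions. Of 63 actin and actin-binding genes 16 were higher and 6 lower (25.4% and 9.5%, against 16.6% and 15.6% of all genes tested). Their median was 0.06, and -0.01 with labelled-KO number 2 alone. With the covariate 10 were higher and 4 lower. Capza1, which caps actin filaments, stood at 101, 98.6 and 112 CPM in labelled KO, against 236, 209, 252 and 237 CPM in WT (log2 fold change -1.17, SE 0.09, adjusted p = 2.3e-08) and was as low at 0 h and 4 h (-1.10 and -1.20). Lima1, an actin bundling protein gene, stood at 119, 135 and 131 CPM in labelled KO, against 86.7, 86.8, 93.1 and 87.3 CPM in WT (log2 fold change 0.54, SE 0.08, adjusted p = 2.8e-05), far less than its log2 fold change of 2.80 at 4 h. Lima1 lies on chromosome 15 (99778468 to 99875477), as does Nr4a1 (101253902 to 101274795), and the part of that position was not tested. Tmsb4x, thymosin beta 4, which holds monomeric actin, was lower by a log2 fold change of -0.48, a call lost without labelled-KO number 4. Actb itself overlapped and did not pass (14909, 13550.2 and 14315 CPM in labelled KO, against 15287, 15046, 14834 and 15874 CPM in WT, log2 fold change -0.10).

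Single genes of small GTPase signalling also passed. Rnd3, an atypical GTPase, stood at 27.3, 26.1 and 25.4 CPM in labelled KO, against 12.3, 10.2, 11.7 and 13.5 CPM in WT (log2 fold change 1.14, SE 0.10, adjusted p = 4.5e-08), and Rhoh, another atypical GTPase, was higher by 1.11. Pak1, a kinase of Rac and Cdc42, was lower (18.5, 23.8 and 17.4 CPM in labelled KO, against 36.6, 37.9, 40 and 36.4 CPM in WT, log2 fold change -0.92), as was the inhibitor gene Arhgdib (-0.70). Of 56 integrin, adhesion and podosome genes 12 were higher and 5 lower (21.4% and 8.9%, against 16.6% and 15.6% of all genes tested). The lower count was 2 without labelled-KO number 2 and 3 without labelled-KO number 3 or WT number 1, 2 or 4. Vcam1, a ligand of integrin alpha 4, stood at 126, 144 and 149 CPM in labelled KO, against 45.7, 38.9, 49.5 and 51 CPM in WT (log2 fold change 1.60, SE 0.21, adjusted p = 1.2e-05), and Sorbs3, a vinculin-binding adaptor gene, at 6.09, 5.25 and 7.54 CPM in labelled KO, against 1.28, 2.15, 1.37 and 1.47 CPM in WT (log2 fold change 1.96). Itga6, integrin alpha 6, was lower at 37.6, 35.7 and 42.3 CPM in labelled KO, against 67.3, 65.7, 75.1 and 68.9 CPM in WT (log2 fold change -0.84, SE 0.09, adjusted p = 9.9e-07). Capza1, Lima1, Rnd3, Pak1, Vcam1, Sorbs3 and Itga6 were lasting. The metalloproteinase gene Mmp14 (0.19) and the mechanosensitive channel gene Piezo1 (0.11) did not pass, whereas 2 potassium channel genes of the mechanosensitive list, Kcnk6 (-0.89) and Kcnk13 (-1.14), were lower and lasting.

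Matrix genes had high fold changes that followed the order of the labelled-KO libraries. Of 23 stromal markers tested 19 were higher, with a median of 3.47, and that count was 2 without labelled-KO number 4, 1 with the covariate and 0 with labelled-KO number 2 alone. The covariate is the mean of these same markers, so the loss of their calls with it follows from how it was made. Col1a2, which encodes a chain of type I collagen, had 14.6, 70.2 and 325 CPM in labelled KO, against 6.96, 5.36, 21.7 and 3.57 CPM in WT, so its groups overlapped (log2 fold change 3.95, SE 1.08, adjusted p = 0.0082). Postn, periostin, stood at 4.27, 12.1 and 54.8 CPM in labelled KO, against 1.1, 0.509, 2.17 and 0.963 CPM in WT (log2 fold change 4.46, SE 1.01, adjusted p = 0.0021), and Timp3, an inhibitor of metalloproteinases, at 3.74, 11.1 and 67.2 CPM in labelled KO, against 1.22, 0.509, 1.77 and 0.793 CPM in WT (log2 fold change 4.80, SE 1.08, adjusted p = 0.002). Acta2, smooth muscle actin, Ccn2, a YAP target, Sparc and Loxl2 had the same order, labelled-KO number 2 lowest and number 4 highest, with log2 fold changes of 3.34, 3.73, 3.87 and 3.86. Yap1, the transcriptional coactivator, held 70 counts in labelled KO, against 4 in WT (4.84). Of 30 matrix proteases and inhibitors 14 were higher and 2 lower, and 5 and 2 without labelled-KO number 4. Of 28 mechanosensitive channel and YAP pathway genes 11 were higher and 3 lower, and 4 and 3 without it. Timp1 stood at 14.7, 22.9 and 72.2 CPM in labelled KO, against 5.37, 4.27, 8.37 and 4.87 CPM in WT and kept its call without number 4 and with the covariate, but not with number 2 alone (log2 fold change 2.72, SE 0.49, adjusted p = 0.00033). Tnc, tenascin C, had the same order, at 6.70, 29.6 and 86.6 CPM in labelled KO, against 2.07, 2.11, 4.10 and 1.87 CPM in WT. Its log2 fold change was 4.07, and 1.45 with number 2 alone. The Tnc call held in every fit with more than 1 labelled-KO library that tested it, so a lasting call can follow this order. These genes moved with the stromal marker level of the libraries, whose part in the result was not tested.

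**Figure D4:**
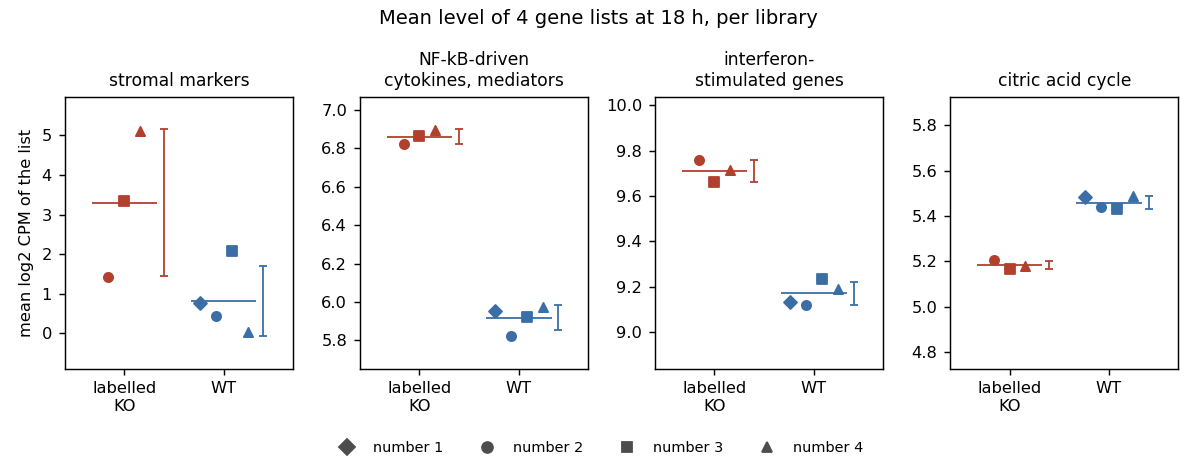
Mean log2 CPM of 4 gene lists in each library at 18 h, labelled KO (left, red) and WT (right, blue), with the group mean as a line, the SD as a bar and the library number as the marker shape; axes do not start at 0. Stromal markers lie at 1.41, 3.34 and 5.12 in labelled-KO numbers 2, 3 and 4, while the same libraries lie within 6.82 to 6.90 for NF-kB-driven genes and 5.17 to 5.20 for citric acid cycle genes.

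Of 14 macrophage markers 3 were higher and 2 lower (21.4% and 14.3%), near the 16.6% and 15.6% of all genes tested, and 9 did not pass. Adgre1, which encodes the macrophage marker F4/80, stood at 2819, 2754 and 2378 CPM in labelled KO, against 4017, 4124, 3696 and 3949 CPM in WT (log2 fold change -0.57, SE 0.09, adjusted p = 6.2e-05), and Csf1r, the receptor of the macrophage growth factor, was lower by a log2 fold change of -0.35. Mertk, a receptor for dying cells, was higher by 0.42, the lysosomal marker gene Cd68 by 0.38. Of 10 neutrophil markers tested 7 were higher and none lower (5 without labelled-KO number 4), with S100a8, a calprotectin subunit, at 22.4, 35.8 and 26.1 CPM in labelled KO, against 7.69, 9.39, 10.1 and 10.8 CPM in WT (log2 fold change 1.56, SE 0.25, adjusted p = 8e-05). Before LPS, at 0 h, 8 of the same 10 were already higher, with a median of 2.01 against 1.25 at 18 h. At 4 h 1 was higher, with a median of 0.78. Of all genes tested 1.11% were higher at 0 h and 2.87% at 4 h. Of 14 monocyte markers 4 were higher and 2 lower, and 2 and 2 without labelled-KO number 2 or without WT number 1. The higher ones include Nr4a1, the gene the label names, whose call was among those that ended in these fits. Vcan, a matrix proteoglycan gene among them, stood at 90.4, 136 and 175 CPM in labelled KO, against 33.1, 38.7, 55.3 and 51.2 CPM in WT (log2 fold change 1.59, SE 0.22, adjusted p = 1.6e-05), and in the opposite direction Cd300e, an activating receptor gene, stood at 9.05, 9.46 and 6.69 CPM in labelled KO, against 34.8, 23.6, 20.4 and 22.8 CPM in WT (log2 fold change -1.60, SE 0.28, adjusted p = 0.00021), with the sialophorin gene Spn lower by a log2 fold change of -1.06. Hdc, which makes histamine, stood at 67.2, 66.8 and 66.2 CPM in labelled KO, against 33.1, 26, 29.5 and 33.2 CPM in WT (log2 fold change 1.13, SE 0.08, adjusted p = 8.6e-09), while Mcpt4, Tpsb2, Ms4a2 and Fcer1a, defining mast cell and basophil genes, were at 0 in all 7 libraries. Of macrophage lineage factors 10 of 37 were higher and 2 lower (27% and 5.4%, with 4 lower without labelled-KO number 2). Cebpd (-1.40) and Pparg (-0.59) were the lower ones.

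Of 56 cell cycle genes 8 were higher and 12 lower (14.3% and 21.4%), against 16.6% and 15.6% of all genes tested, with a median of -0.01. The lower count was 8 without labelled-KO number 4 or with the covariate and 7 without labelled-KO number 2. The helicase subunit genes Mcm2 (2.35, 2.8 and 2.92 CPM in labelled KO, against 10.4, 8.8, 8.61 and 7.7 CPM in WT), Mcm3 (-1.08) and Mcm5 (-1.01) were lower and lasting, with a log2 fold change of -1.71 for Mcm2. Ccne1, cyclin E1, was higher (5.66, 3.77 and 5.19 CPM in labelled KO, against 1.95, 2.78, 1.61 and 2.61 CPM in WT, log2 fold change 1.09), and the mitotic genes Birc5 (1.41) and Prc1 (1.05) were higher too. At 0 h 39 of the same 56 had been lower and none higher, with a median of -0.95, and at 4 h 13 were lower, where 2.87% (0 h) and 2.7% (4 h) of all genes tested were lower. The clock genes Nfil3 (1.32) and Bhlhe40 (1.58) were higher and Tef (-0.50) lower, 3 of the 5 calls among 17 clock genes. Of the 17, 23.5% were higher and 5.9% lower, against 16.6% and 15.6% of all genes tested. The count of calls was 3 without labelled-KO number 4 or WT number 4.

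Apart from Tnc, given above, the largest lasting rises outside the lists among genes of at least 5 CPM included Mtus1. Mtus1, a microtubule-associated protein gene, stood at 45, 58.1 and 54.2 CPM in labelled KO, against 6.22, 6.93, 8.53 and 8.16 CPM in WT (log2 fold change 2.82, SE 0.14, adjusted p = 2.4e-11). Fzd1, a Wnt receptor, stood at 44.7, 37.7 and 53.6 CPM in labelled KO, against 7.93, 7.32, 9.57 and 8.1 CPM in WT (log2 fold change 2.47, SE 0.18, adjusted p = 5e-09), Clic5, which links membranes to actin through ezrin, at 242, 145 and 244 CPM in labelled KO, against 33, 34.4, 49.7 and 40.6 CPM in WT (log2 fold change 2.42, SE 0.27, adjusted p = 2e-06), and Tmtc2, an O-mannosyltransferase, at 13.1, 13.8 and 16.9 CPM in labelled KO, against 2.62, 2.27, 3.3 and 2.78 CPM in WT (log2 fold change 2.43, SE 0.21, adjusted p = 9.1e-08). The largest lasting falls included Cers5, a ceramide synthase, at 3.4, 3.33 and 3.84 CPM in labelled KO, against 12.6, 12.5, 11.2 and 10.9 CPM in WT (log2 fold change -1.74, SE 0.15, adjusted p = 6.5e-08), Scamp5, a secretory carrier protein gene, at 6.44, 5.08 and 6.12 CPM in labelled KO, against 19, 16.6, 15.1 and 16.7 CPM in WT (log2 fold change -1.52, SE 0.14, adjusted p = 1.5e-07), and the glutamine transporter gene Slc38a1 at 18.9, 22.2 and 18.9 CPM in labelled KO, against 55, 54.9, 51.4 and 56.9 CPM in WT (log2 fold change -1.45, SE 0.13, adjusted p = 1.2e-07). Adk, adenosine kinase, stood at 5.57, 6.04 and 4.91 CPM in labelled KO, against 16.4, 13.3, 14.2 and 15.3 CPM in WT (log2 fold change -1.43, SE 0.12, adjusted p = 3.7e-08). Sesn1, a stress-inducible regulator of mTORC1, was lower by a log2 fold change of -1.47 and Prxl2b, a prostaglandin F synthase gene, by -1.49. In none of these did the groups overlap. Cers5 (chromosome 15, 99735592 to 99772515) and Slc38a1 (96571418 to 96643438) lie on the chromosome of Nr4a1 (101253902 to 101274795). The part of that position in their differences was not tested.

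A small set of genes differed at every time. Cd5l, a secreted macrophage protein that binds lipids (chromosome 3, 87357881 to 87371074), was almost absent from labelled KO. Cd5l had 2.09, 1.31 and 1.35 CPM in labelled-KO numbers 2, 3 and 4, against 51.4, 62.4, 71.3 and 76.6 CPM in WT numbers 1 to 4. Its log2 fold change was -5.37 at 18 h (SE 0.21, adjusted p = 2.9e-13), -5.35 at 4 h and -5.05 at 0 h. Ifi202b, an interferon-inducible gene of chromosome 1 with near-identical relatives, held 47525 counts over the labelled-KO libraries and 49 over the WT libraries, and Trim12a, of a chromosome 7 cluster with the same problem, 2.18, 0.35 and 0.925 CPM in labelled KO, against 27.6, 27.9, 30.6 and 31 CPM in WT. The call held in the same direction at all 3 times for 98 genes. In total 258 genes called at 18 h were also called at 0 h (6.4% of the 18 h calls, 51.7% of the 499 at 0 h), 77 of them in the opposite direction. With the 697 at 4 h it shared 387 (9.59% and 55.5%), 52 of them in the opposite direction. At 0 h and 4 h 3.98% and 5.56% of the genes tested were called.

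Most of the 18 h difference was not called earlier, and a test of the change itself was made for each gene. The labelled-KO against WT difference at 18 h differed from that at 0 h in 2202 genes (17.6%; 1074 or 8.57% toward higher and 1128 or 9% toward lower in labelled KO) and from that at 4 h in 1358 genes (10.8%; 784 or 6.26% and 574 or 4.58%), by the same edgeR test. In 887 genes the 18 h difference and both tests passed. Within the NF-kB-driven list 22 of 46 members shifted toward higher values in labelled KO between 4 h and 18 h and none toward lower, and 18 of 37 immediate early and Nr4a genes did the same. At 4 h 5 of 46 and 5 of 37 had been higher, and 0 and 3 lower, where 2.87% of all genes tested were higher and 2.7% lower. Interferon-stimulated genes shifted upward in 9 of 68 and downward in 1 between 4 h and 18 h.

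Single genes show the sizes. For Ptgs2 the log2 fold change was 0.08 at 4 h and 2.34 at 18 h, a difference of 2.26 (SE 0.39, adjusted p = 0.00093). Fzd1 stood at -0.15 at 4 h, so its difference was 2.63 (SE 0.24, adjusted p = 2.2e-06), and Ch25h at -0.11, a difference of 2.57. Nos2 and Il6 stood at 0.15 and -0.07 at 4 h, when neither passed. Scamp5 was at 0.07 at 4 h and shifted by -1.59. In the other direction in time, Lima1 and Slc16a1, the lactate transporter gene, were far higher in labelled KO at 4 h (2.80 and 2.64) than at 18 h (0.54 and 0.79), and the 18 h call of Slc16a1 ended without labelled-KO number 4. Cytip, an adaptor that regulates integrin adhesion, and Prag1, a pseudokinase gene, had been lower in labelled KO at 0 h (-1.04 and -1.54, adjusted p = 3.4e-06 and 0.00016) and were higher at 18 h (2.09 and 2.09, adjusted p = 1.3e-09 and 8.9e-08). Between 0 h and 18 h 27 of 56 cell cycle genes shifted toward higher values in labelled KO and 2 toward lower, and 28 of 50 ribosomal protein genes shifted toward lower.

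**Figure D5:**
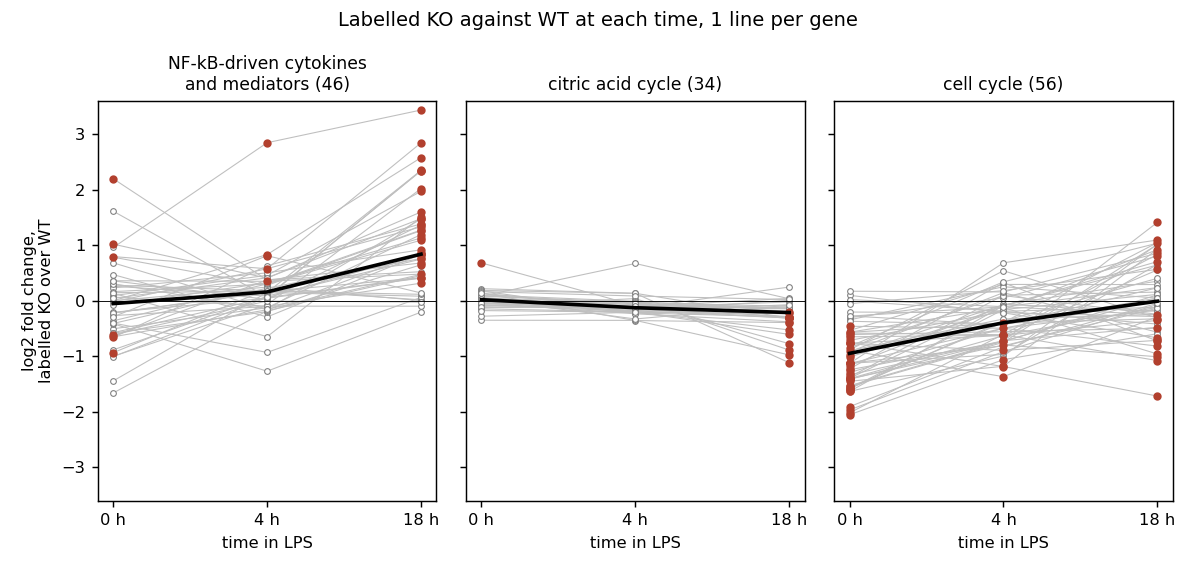
Each grey line is 1 gene of a list, with its log2 fold change of labelled KO over WT at 0, 4 and 18 h of LPS; red points passed the edgeR test at an adjusted p under 0.05 at that time, open points did not, and the black line is the median. The NF-kB-driven list has medians of -0.05, 0.16 and 0.84, the citric acid cycle list 0.02, -0.12 and -0.21, and the cell cycle list -0.95, -0.40 and -0.01.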

How the data were processed

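Polyadenylated RNA of cultured macrophages was sequenced, per the labels' protocols. The submitters' processing notes name CASAVA 1.8.2 and HISAT2 2.1.0 and the build mm10; for the counting tool, its strand setting and its treatment of shared reads, nothing is given in the sources used here. The deposited table, whose unit was read from its values, gives an estimated count for each RefSeq transcript, in 0.5 steps, and 29.6% of its values were not whole. The tests had been planned for whole counts, so values were rounded to whole numbers, ties upward.

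Of 42361 transcript IDs, 93 had no gene name and were left out (0.416 to 1.72% of the deposited counts of the 18 h libraries). The others fell to 25067 genes, each represented by its transcript of highest mean count, because the second transcript of a gene mostly repeats the first (median ratio 0.992). Overlapping genes and genes with close copies are therefore uncertain. All 21 libraries were fitted in edgeR 4.0.16 (R 4.3.3) with 6 group means, TMM factors, filterByExpr and the quasi-likelihood test, with Benjamini-Hochberg adjustment over 12529 genes and a threshold of 0.05. The fit was also run on counts simulated from its own estimates for these data, so that run does not check those estimates. CPM values use the TMM library sizes. The stromal covariate is the mean log2 CPM of the stromal markers (prior count 2).

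Genes were named by a rule: a set list, the 15 largest rises and 15 largest falls at 5 CPM or more without overlap, up to 4 called members of each sign per list, and up to 8 genes of each sign per difference between times. The comparison, lists and rule were chosen with earlier results of these data known. Alternatives covered limma-voom 3.58.1, DESeq2 1.42.0, other scaling, filters, summed transcripts, a replicate block, the 18 h libraries alone, the covariate and each library left out. All replicate pairs differed by more than sampling noise. Promoters came from RefSeq windows, and 9984 of the 12529 genes had one. A few genes and 1 gene list are not reported here. Figures were drawn with matplotlib 3.10.9.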

Additional observations from a re-analysis of the deposited data

Results flagged for a closer look

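In 13 reported genes of the 282 named by the rule, 1 of the 4 WT libraries at 18 h lay far from the other 3 by Dixon's criterion, and chance flags about 1 in 20 groups. WT number 3 was the far library for Lima1 (93.07 CPM), Tnc (4.102), Nr4a3 (0.3217), Cxcl12 (1.609), Fcer1g (1192), Serping1 (2.896), Enah (1.609) and Adamts9 (0.1609). Its summed stromal marker level, 139 CPM, was the highest of the WT libraries, and the part of that level in these values was not tested. WT number 1 was the far library for Il6 (24.72 CPM) and Steap3 (10.37), WT number 2 for Ticam2 (60.07) and Casp4 (154.2), and WT number 4 for Ifi202b (1.756), which has near-identical relatives.

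The labelled-KO against WT difference changed with time by the edgeR test of the difference itself in 2202 genes between 0 h and 18 h and in 1358 between 4 h and 18 h. On the log2 scale, the difference at 18 h minus that at 0 h was 3.7881 for Nos2, 3.2214 for Ptgs2, 5.2942 for Slamf1, 3.2635 for Tmtc2, 4.3151 for Lipg, 3.63 for Prag1, 3.1388 for Cytip and 3.7761 for Trim30d, which has close copies. At 0 h Nos2 held 11 counts in labelled KO and 49 in WT, Slamf1 2 and 28 and Lipg 1 and 16, so these fitted sizes depend on few counts. Shifts toward lower values in labelled KO were -1.6696 for Scamp5, -1.7955 for Prxl2b, -1.5708 for Sesn1, -1.6192 for Rhobtb2, -2.5291 for Bmp1, -2.0299 for Sumo2 (close copies), -1.5167 for Lcn2 and -1.4001 for Arhgap19.

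The difference at 18 h minus that at 4 h was 2.259 for Ptgs2, 2.6254 for Fzd1, 2.5691 for Ch25h, 2.5828 for Tmtc2, 2.2507 for Hspa1a (a near-identical copy) and, from few counts at 4 h, 5.9945 for Rhov (0 counts in labelled KO and 12 in WT) and 3.1688 for Plekha7 (1 and 9). It was -2.2645 for Lima1, -1.8471 for Slc16a1, -1.5886 for Scamp5, -1.5648 for Kcnk13, -1.7961 for Arhgap19, -1.6129 for Nav2, -1.5883 for Trp53rka and -1.574 for Ppp3cc.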

How the results depend on the processing

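The 4034 calls at 18 h became 2452 with the stromal covariate (1224 higher and 1228 lower) and 1483 with labelled-KO number 2 alone, an alternative chosen after seeing the data (795 higher and 688 lower). With number 2 alone the lone library is assumed to vary like the other groups, and the tests of change with time gave 744 genes against 0 h and 450 against 4 h. Leaving out 1 library at a time gave 2674 (without labelled-KO number 4) to 3842 calls, 1338 to 1963 higher and 1336 to 1887 lower, and 1601 to 2149 and 969 to 1367 genes for the tests against 0 h and 4 h. Other tools, scaling, filters, summed transcripts and the 18 h libraries alone gave 3658 to 4191 calls. The balance of directions moved with scaling: 2074 were higher and 1960 lower as reported, 2448 and 1663 with median-of-ratios factors, 2527 and 1664 with DESeq2, and 1838 and 2286 with upper-quartile factors. Same-number correlations of deviations between the genotypes at 18 h were 0.16, 0.06 and -0.05, within the -0.35 to 0.32 of pairs with different numbers. So few pairs at 1 time cannot exclude a shared day or batch. Whether equal numbers at 0, 4 and 18 h mark the same mouse is not known, and the reported tests took all libraries as independent. The replicate block gave 4074 calls, of which 3747 were shared, with 2115 higher and 1959 lower.

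Of the 272 named genes called, 176 kept the call in every alternative with more than 1 labelled-KO library that tested them. Signs turned for Tnf (-0.0235 with upper-quartile factors, -0.0394 with the block, -0.158 to 0.155 with 1 library left out), Arg1 (-0.33 with the covariate, -0.72 with number 2 alone), Cxcl1 (-0.16 with the block, -0.10 to 0.52 with 1 library left out, -0.65 with number 2 alone) and Sod3 (-0.27 with the covariate). With number 2 alone they also turned for Cx3cl1 (-0.48), Myl9 (-0.34), Adamts9 (-2.40), Angptl4 (-5.02) and Ebf1 (-0.19), all low genes. The cause was not tested. At 12500551 to 24724013 counts a library, genes of few counts have fitted fold changes that depend on the prior count.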

Other observations

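Several lists not described above also held more higher than lower genes in labelled KO at 18 h. Of 26 complement and coagulation genes 12 were higher and none lower, with a median log2 fold change of 0.34 (7 higher without labelled-KO number 4 and 7 with the stromal covariate). Of 20 genes known from alternative activation 8 were higher and none lower, with a median of 0.31 (8 without labelled-KO number 4, 6 with the covariate). Of 34 Fc, scavenger and phagocytic receptors 13 were higher and 4 lower (9 and 2 without labelled-KO number 4, 6 and 3 with the covariate, 8 higher without labelled-KO number 3 or WT number 2), and of 19 osteoclast-type and fusion genes 7 and 2 (3 and 2 without it). Of all genes tested 16.6% were higher and 15.6% lower.

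Among minor markers of other cells, dendritic cell markers summed to 45.7 to 60.1 CPM in labelled KO and 38.3 to 51.6 CPM in WT, with Cd209a at 0. Of 10 tested, 5 were higher and none lower, with a median of 0.99 (4 higher without labelled-KO number 4 or with the covariate). Fscn1, the highest of them in WT, had 16.5, 11.7 and 21.2 CPM in labelled KO, against 34, 26.6, 20.7 and 21 CPM in WT. Endothelial markers summed to 56.8 to 66.1 against 50.9 to 64.6 CPM, with Cldn5 at 0. B cell markers summed to 146 to 183 CPM in labelled KO and 141 to 169 CPM in WT. Erythroid and megakaryocyte markers summed to 72.4 to 87.6 against 50.2 to 72.2 CPM, with the 4 globin genes of the list at 0.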
